A study of Mus musculus with 8 samples.

Results

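The thrombospondin genes Thbs1, Thbs2, Thbs3 and Thbs4 and 4 genes for receptors or effectors linked to thrombospondin-2 (Cd36, Cd47, Tlr4 and Ptk2) were followed in mouse liver. These 8 genes were taken by symbol from 2 deposited tables, which list 24662 and 27261 features, and each of the 8 was found in both. The libraries were made from poly(A) RNA of bulk liver and form 4 groups of 2. AAV6-CMV-shThbs2 livers came from mice given an adeno-associated virus of type AAV6 with a short hairpin RNA against Thbs2 under the name of the CMV promoter, which is of viral origin and broadly active, and AAV6-CMV-NC livers are their controls. AAV6-αSMA-shThbs2 livers carry the name of the smooth muscle actin promoter, which is active in smooth muscle and in activated stellate cells, and AAV6-αSMA-NC livers are their controls. The CMV arm was sequenced on a HiSeq2500 and the αSMA arm on a DNBSEQ-T7 by another company, so a difference between the arms cannot be told apart from one of platform or company. By its title the series asks about thrombospondin-2 of stellate cells in fibrosis of the liver. The labels give no strain, age, sex, viral dose, injury or time, the hairpin sequence was not analysed here, and both arms hold vector-treated controls but no untreated liver.

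Thrombospondins are secreted matricellular glycoproteins that bind cell surface receptors and matrix proteins without forming fibres themselves. Thbs1 and Thbs2 encode the trimeric members, which carry type 1 repeats that bind CD36, while Thbs3 and Thbs4 encode pentameric members that lack these repeats. In the injured liver, activated stellate cells are a known source of thrombospondin-2, and CD47, CD36, Toll-like receptor 4 and focal adhesion kinase (encoded by Ptk2) are proteins through which thrombospondins are known or proposed to signal.

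Because Thbs2 was the target of the hairpin, its transcript was first compared with those of its relatives. The coding transcript Thbs2-201 has 22 exons, 3516 coding bases and 5895 bases in all. Of 7000 distinct 21-base stretches in the 2 annotated Thbs2 transcripts, 29 also occur in a transcript of 11 other genes, 9 of them in Thbs1, 1 in Thbs3 and 0 in Thbs4. The 9 stretches shared with Thbs1 form 2 unbroken runs and the 1 shared with Thbs3 another. These 3 runs are shown because a hairpin that lies inside one could not tell the genes apart. The first run lies in exon 15 of Thbs2 (GRCm38 chr17:14676284-14676309, minus strand) and in exon 15 of Thbs1 (chr2:118120893-118120918, plus strand). The second lies in exon 19 of Thbs2 (chr17:14670784-14670806) and exon 19 of Thbs1 (chr2:118123327-118123349). The third lies in exon 14 of Thbs2 (chr17:14676999-14677019) and exon 17 of Thbs3 (chr3:89224062-89224082, plus strand). All are coding sequence in both genes, printed 5′ to 3′ on the strand of the transcript from GENCODE M21.
Thbs2 and Thbs1, 26 bases: ggagaccgctgtgacaactgccccta
Thbs2 and Thbs1, 23 bases: gatgatgactacgctggctttgt
Thbs2 and Thbs3, 21 bases: ggacgatgacaatgacggtgt
Whether the hairpin used here lies in one of these runs was not tested, since its sequence was not at hand.

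The upstream regions of Thbs2 and Thbs3 are shown because these 2 thrombospondins had values on opposite sides of the controls in both arms. Thbs1 and Thbs4 also lay below the controls in both arms, so this is not particular to Thbs2. RefSeq promoters on GRCm38.p6 were matched for 5 of the 8 genes (Thbs2, Thbs3, Thbs4, Cd36 and Cd47), and the 250 bases before the start are printed with matches in capitals. Capitals mark CCAAT (in 33.9% of all 32851 promoters), TATAAA (12.4%) and GGGCGG (32.7%) on either strand. TGANTCA (6.75%), CACGTG (6.02%), GCGTGGGCG (0.54%) and the CArG box (1.47%) were searched on both strands too and their letters are not in these windows. The Thbs2 region is chr17:14694263-14694512 on the minus strand, with 46.8% G and C, and the Thbs3 region is chr3:89214930-89215179 on the plus strand, with 58.8%.
Thbs2: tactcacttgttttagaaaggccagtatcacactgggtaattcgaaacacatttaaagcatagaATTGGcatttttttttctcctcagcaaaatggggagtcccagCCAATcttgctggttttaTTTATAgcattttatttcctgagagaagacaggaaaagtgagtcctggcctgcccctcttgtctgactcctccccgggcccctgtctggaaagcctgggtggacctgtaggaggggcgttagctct
Thbs3: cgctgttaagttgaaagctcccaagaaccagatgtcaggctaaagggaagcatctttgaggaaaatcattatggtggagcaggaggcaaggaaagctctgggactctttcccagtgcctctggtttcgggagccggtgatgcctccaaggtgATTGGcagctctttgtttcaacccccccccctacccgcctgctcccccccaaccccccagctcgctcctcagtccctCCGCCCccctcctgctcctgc
The Thbs2 window holds 2 CCAAT matches and 1 TATAAA match on the opposite strand and no GGGCGG. The Thbs3 window holds 1 CCAAT match and 1 GGGCGG match. The Thbs4 window, not printed here, has 70.8% G and C and 3 GGGCGG matches.

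Values are FPKM, fragments scaled for transcript length and library size, so levels may be compared between genes within a table. Between 10769 and 12852 features per library reached 1 FPKM. The deposited FPKM summed to 514600 and 503000 in CMV shThbs2 livers, against 504200 and 491900 in CMV NC livers, and to 1254000 and 1225000 in αSMA shThbs2 livers, against 941500 and 924100 in αSMA NC livers. Mitochondrially encoded transcripts made up 23.1% and 24.6% of the sum in αSMA shThbs2 livers, against 12.2% and 12.1% in αSMA NC livers, so the composition of the αSMA libraries moved with the group. All 6 hepatocyte markers were detected in every group, and their sum was 48130 and 44130 FPKM in CMV shThbs2 livers, against 64330 and 64060 FPKM in CMV NC livers, and 43440 and 35750 FPKM in αSMA shThbs2 livers, against 41900 and 30000 FPKM in αSMA NC livers. None of these differed by limma in the CMV arm (3 of 6 at an unadjusted p under 0.05, against 10.2% of all tested features). Skeletal muscle and tendon markers summed to at most 0.24 FPKM. In bulk tissue, fewer cells of a type and less RNA per cell cannot be told apart.

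**Figure D1:**
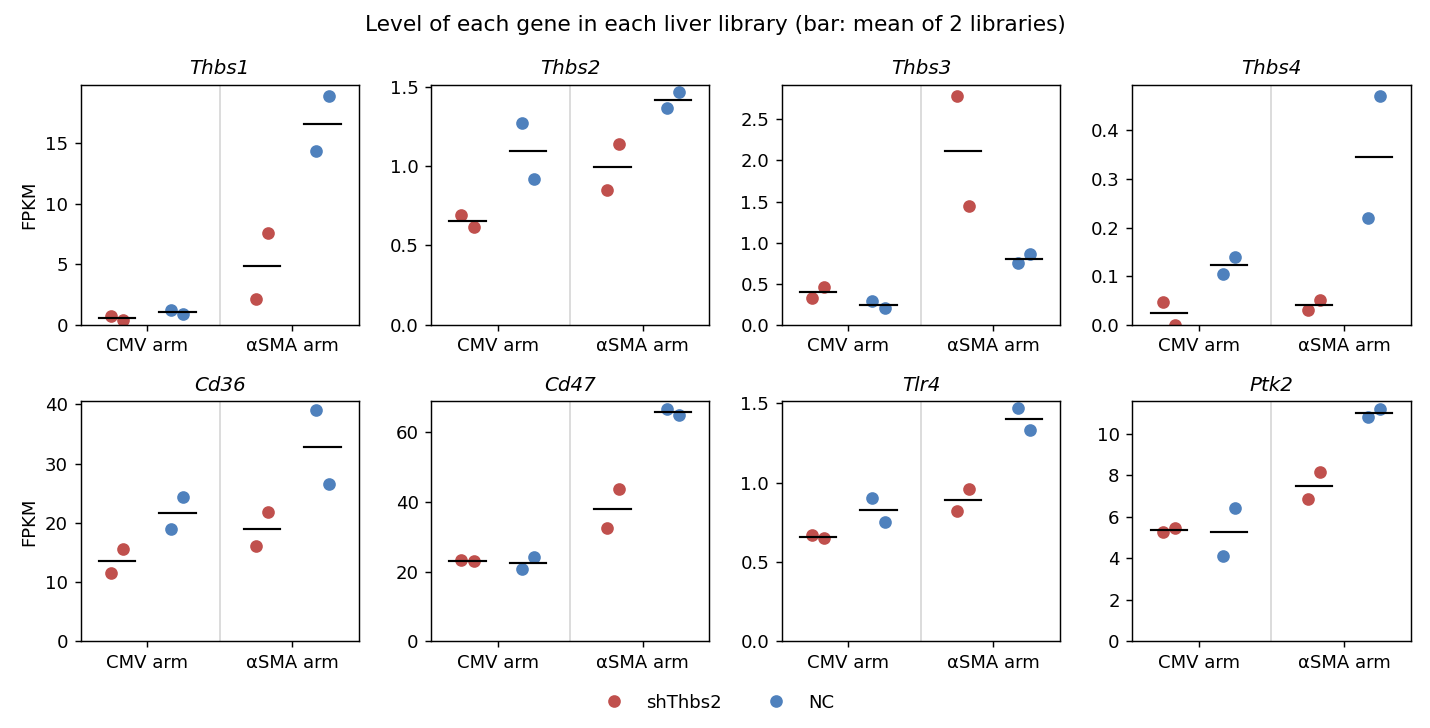
FPKM of the 8 genes in each of the 8 liver libraries, 1 panel per gene with its own axis, shThbs2 livers left of NC livers in each arm; points are libraries and bars the mean of 2. In the αSMA arm Thbs1 lay at 2.13 and 7.6 FPKM in shThbs2 livers and at 14.4 and 18.9 FPKM in NC livers, while Cd47 in the CMV arm overlapped between groups.

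Thbs2, the targeted gene (ENSMUSG00000023885, chr17:14665500-14694235, minus strand), measured 0.695 and 0.614 FPKM in CMV shThbs2 livers, against 1.27 and 0.922 FPKM in CMV NC livers. It measured 0.85 and 1.14 FPKM in αSMA shThbs2 livers, against 1.37 and 1.47 FPKM in αSMA NC livers. Both shThbs2 groups lay below their controls without overlap, with group means 40.4% lower in the CMV arm and 29.9% lower in the αSMA arm. Means were 0.654 ± 0.0576 FPKM in CMV shThbs2 livers and 1.10 ± 0.249 FPKM in CMV NC livers, and 0.995 ± 0.205 FPKM in αSMA shThbs2 livers and 1.42 ± 0.0707 FPKM in αSMA NC livers (SD, n = 2 each). Neither difference passed limma in its own arm. The log2 change of FPKM + 1 was -0.34 in the CMV arm (SE 0.135, 95% confidence interval -0.70 to 0.03, limma adjusted p = 0.6002 from the fit without a filter) and -0.28 in the αSMA arm (SE 0.184, -0.75 to 0.18, adjusted p = 0.269). An exact permutation test of 2 against 2 libraries cannot give a two-sided p below 0.333, the value found in both arms. In the fits without a filter, 6.17% of CMV features and 26.2% of αSMA features had a lower log2 change than Thbs2 (43.0% in the filtered αSMA fit, whose median change was -0.16). The αSMA change was -0.06 with median centring (adjusted p = 0.770) and -0.51 with rescaling to the same FPKM sum (adjusted p = 0.0709).

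The cells known to make Thbs2 were read through their markers. The 8 stellate cell markers summed to 120 and 135 FPKM in CMV shThbs2 livers, against 152 and 143 FPKM in CMV NC livers, and to 328 and 454 FPKM in αSMA shThbs2 livers, against 296 and 310 FPKM in αSMA NC livers. The 5 myofibroblast markers summed to 11.4 and 9.04 FPKM in CMV shThbs2 livers, against 13.4 and 23.0 FPKM in CMV NC livers, and to 54.8 and 47.8 FPKM in αSMA shThbs2 livers, against 65.8 and 77.5 FPKM in αSMA NC livers. Dcn, which encodes decorin, made up most of the αSMA stellate sum. It measured 219 and 344 FPKM in αSMA shThbs2 livers, against 187 and 209.6 FPKM in αSMA NC livers. Of the 8 stellate markers 5 had a negative change in the αSMA arm, where 59.2% of all tested features had one. In the CMV arm 7 of the 8 had a negative change, where 43.7% of all tested features had one. Myofibroblast sums were below the controls in both arms, stellate sums in the CMV arm, and the part of either in the Thbs2 values was not tested. The αSMA myofibroblast sum was carried by Acta2 and Tagln, whose means changed by -46.7% and -35.3%. Means of Myl9 (12.4%), Tpm2 (6.55%) and Cnn1 (0.585 FPKM, against 0.14 FPKM in NC livers) were higher in αSMA shThbs2 livers. To set Thbs2 against them within each library, 11 markers that averaged at least 1 FPKM in both arms, 7 of stellate cells and 4 of myofibroblasts, served as denominators. The CMV ratio of Thbs2 to the marker was lower in both shThbs2 livers than in both NC livers for 4 of 11 markers, higher for 1 and overlapping for 6. The αSMA ratio was lower for 5, higher for 2 and overlapping for 4. Groups of 2 often do not overlap: among features averaging at least 1 FPKM, 42.0% in the CMV arm and 74.9% in the αSMA arm did not. The same share for ratios of other genes was not computed. Per 100 FPKM of Pdgfrb, the PDGF receptor of stellate cells, Thbs2 measured 25.2 and 28.9 FPKM in αSMA shThbs2 livers, against 23.4 and 24.96 FPKM in αSMA NC livers. Per 100 FPKM of Colec11, a stellate cell lectin, it measured 4.79 and 6.50 FPKM in αSMA shThbs2 livers, against 6.84 and 9.09 FPKM in αSMA NC livers, and 4.49 and 4.26 FPKM in CMV shThbs2 livers, against 6.43 and 6.83 FPKM in CMV NC livers. Whether Thbs2 was lower per marker differed from marker to marker.

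**Figure D2:**
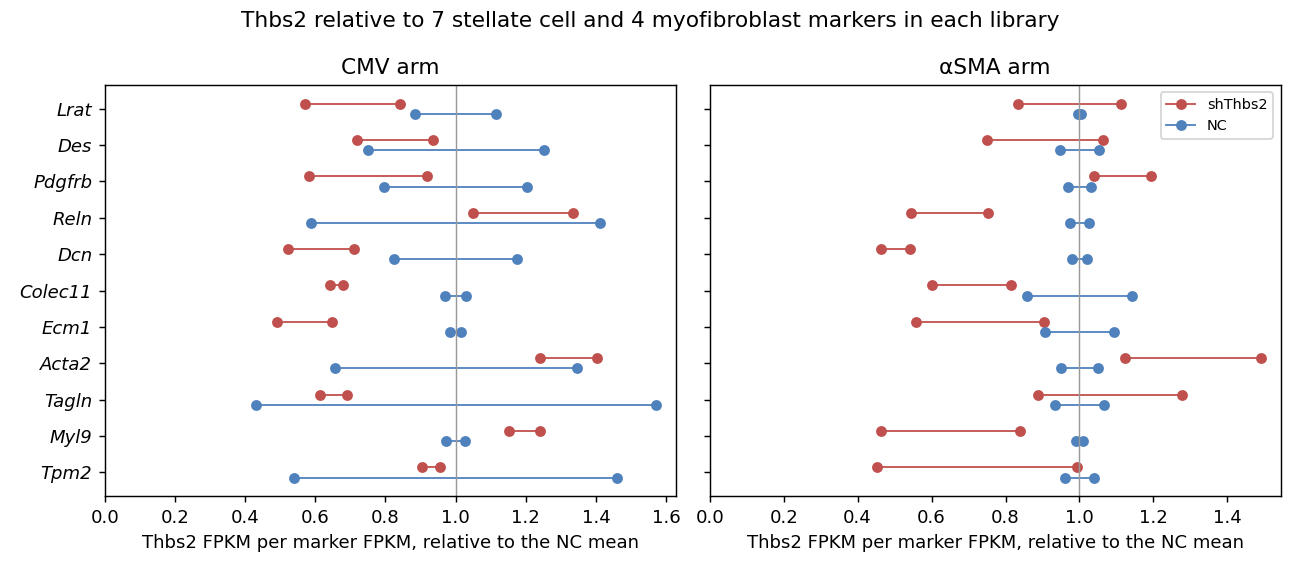
Thbs2 FPKM divided by the FPKM of each of 7 stellate cell markers (Lrat to Ecm1) and 4 myofibroblast markers (Acta2 to Tpm2), relative to the mean of the NC livers of the same arm; points are libraries, joined within a group. In the αSMA arm 5 of 11 markers have both shThbs2 livers below both NC livers and 2, Pdgfrb and Acta2, have them above. Among αSMA features averaging at least 1 FPKM, 74.9% did not overlap between groups.

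Thbs1 (ENSMUSG00000040152, chr2:118111876-118127133, plus strand) encodes thrombospondin-1, which activates latent TGF-β and is released by platelets. It measured 2.13 and 7.6 FPKM in αSMA shThbs2 livers, against 14.4 and 18.9 FPKM in αSMA NC livers, and 0.729 and 0.387 FPKM in CMV shThbs2 livers, against 1.22 and 0.864 FPKM in CMV NC livers. The shThbs2 livers were below the controls in both arms without overlap, and the αSMA shThbs2 livers lay far from each other, with a mean of 4.87 ± 3.87 FPKM, against 16.7 ± 3.21 FPKM in αSMA NC livers (SD, n = 2 each). Thbs1 fell in the αSMA arm (log2 change -1.75, SE 0.482, 95% confidence interval -2.97 to -0.54, limma adjusted p = 0.0418, mean 70.8% lower), and 1.76% of tested features had a lower change. Its CMV log2 change was -0.39 (SE 0.170, adjusted p = 0.621 without a filter). The αSMA call was lost without αSMA shThbs2 replicate 3 (log2 change -1.03, adjusted p = 0.0714), NC replicate 3 (adjusted p = 0.170) or NC replicate 4 (adjusted p = 0.235), without a filter (adjusted p = 0.130), with median centring (adjusted p = 0.0591), with quantile normalization (adjusted p = 0.0617) and with robust empirical Bayes (adjusted p = 0.0737).

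Because platelets hold Thbs1 RNA and Thbs1 is an early response gene, both lists are given beside it. The 7 platelet markers summed to 10.3 and 9.03 FPKM in αSMA shThbs2 livers, against 15.2 and 19.0 FPKM in αSMA NC livers, with 1 of 3 tested markers lower by limma, 0 higher and none at 0 in all libraries. That marker was Pf4, platelet factor 4, with 6.39 and 5.31 FPKM in αSMA shThbs2 livers, against 9.92 and 15.8 FPKM in αSMA NC livers (log2 change -0.99, adjusted p = 0.0326), and it made up most of the sum. The other tested markers were Ppbp (0.17, adjusted p = 0.531) and Itga2b (-0.07, adjusted p = 0.787). The CMV platelet markers summed to 6.53 and 3.11 FPKM in shThbs2 livers, against 11.9 and 5.36 FPKM in NC livers, and the groups overlapped. Of 16 tested immediate early genes, 9 fell and 1 rose in the αSMA arm, with a median log2 change of -1.01, where 22.8% of all features fell, 13.3% rose and the median was -0.16, among them Egr1 (-1.61, adjusted p = 0.0248), Jun (-1.41, adjusted p = 0.00930) and Ier3 (-2.86, adjusted p = 0.00703). Of the CMV genes limma called 0 of 16 (3 at an unadjusted p under 0.05) and 13 had a negative change. Of all tested CMV features 10.2% had an unadjusted p under 0.05 and 43.7% a negative change. The part of platelets and of early response genes in the Thbs1 result was not tested.

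Thbs3 (ENSMUSG00000028047, chr3:89215180-89226837, plus strand), which encodes a pentameric thrombospondin of cartilage and bone, was the 1 gene of the 8 with higher values in shThbs2 livers of both arms. It measured 2.79 and 1.44 FPKM in αSMA shThbs2 livers, against 0.75 and 0.86 FPKM in αSMA NC livers, and 0.325 and 0.465 FPKM in CMV shThbs2 livers, against 0.286 and 0.204 FPKM in CMV NC livers. In neither arm did the groups overlap, and the higher αSMA value came from replicate 3. The log2 change was 0.75 in the αSMA arm (SE 0.259, 95% confidence interval 0.10 to 1.41, limma adjusted p = 0.0723) and 0.16 in the CMV arm (SE 0.0861, adjusted p = 0.685 without a filter). In the αSMA arm it passed limma in the joint model of all 8 libraries (adjusted p = 0.0209). It did not pass there without a filter (limma adjusted p = 0.159), with rescaling to the same FPKM sum (0.128) or with quantile normalization (0.0910). The αSMA change was 1.07 without shThbs2 replicate 4 and 0.44 without shThbs2 replicate 3. Thbs3 reached the αSMA filter of 1 FPKM only through the shThbs2 livers (mean 2.12 FPKM, against 0.805 FPKM in NC livers). Mtx1, a mitochondrial import gene on the opposite strand, shares 318 exonic bases with Thbs3, which is 6.59% of its exonic length, and no source used here states that counting used strand. Mtx1 measured 55.3 and 60.7 FPKM in αSMA shThbs2 livers, against 51.6 and 54.2 FPKM in αSMA NC livers (log2 change 0.13, adjusted p = 0.521).

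Thbs4 (ENSMUSG00000021702, chr13:92751590-92794818, minus strand), a thrombospondin of tendon and muscle, had the lowest level of the 8 genes in every group. It measured 0.03 and 0.05 FPKM in αSMA shThbs2 livers, against 0.22 and 0.47 FPKM in αSMA NC livers, and was listed at 0.0468 and 0 FPKM in CMV shThbs2 livers, against 0.105 and 0.140 FPKM in CMV NC livers. Values were lower in shThbs2 livers of both arms without overlap, but the αSMA table is rounded to 2 decimals, so 0.03 and 0.05 carry a single digit. The log2 change was -0.36 in the αSMA arm (SE 0.105, adjusted p = 0.112) and -0.13 in the CMV arm (SE 0.0496, adjusted p = 0.590), both from limma without a filter, and it passed in the αSMA arm in the joint model (adjusted p = 0.0156). These values are set largely by the added 1: with a pseudocount of 0.1 the changes were -1.61 (adjusted p = 0.0818) and -0.87 (adjusted p = 0.589), and the means were 88.4% lower in αSMA shThbs2 livers and 80.9% lower in CMV shThbs2 livers.

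**Figure D3:**
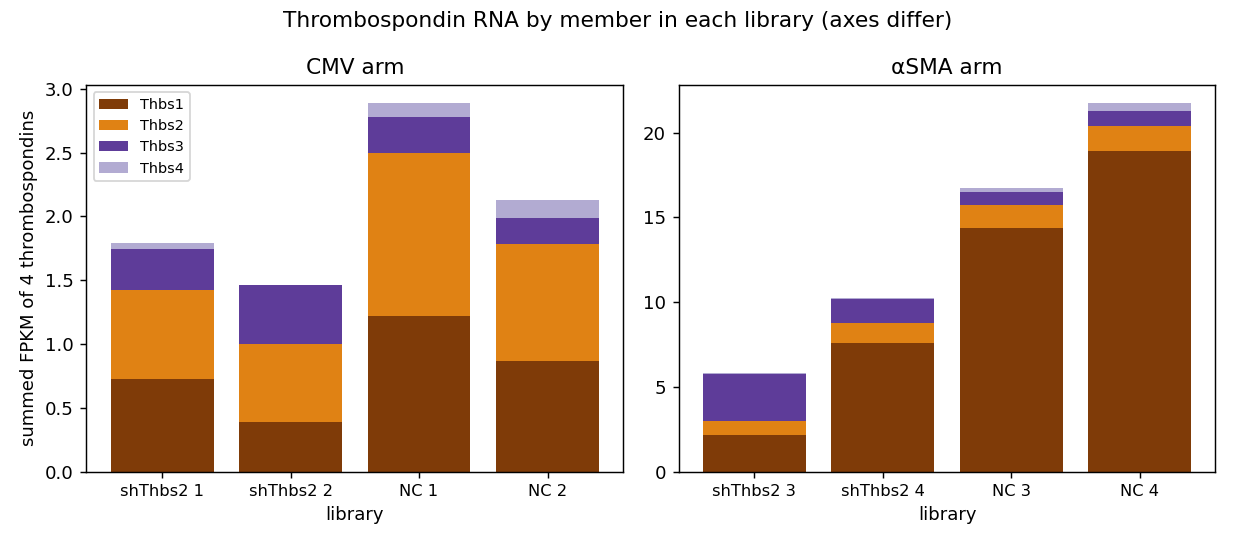
Summed FPKM of Thbs1, Thbs2, Thbs3 and Thbs4 in each library, stacked by gene, with a separate axis per arm. The αSMA sum was 5.80 and 10.2 FPKM in shThbs2 livers and 16.7 and 21.7 FPKM in NC livers, and Thbs1 fills most of the NC bars.

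The make-up of thrombospondin RNA followed from these levels. The 4 genes together measured 5.80 and 10.2 FPKM in αSMA shThbs2 livers, against 16.7 and 21.7 FPKM in αSMA NC livers, and 1.795 and 1.47 FPKM in CMV shThbs2 livers, against 2.89 and 2.13 FPKM in CMV NC livers. Thbs2 made up 14.7% and 11.1% of this sum in αSMA shThbs2 livers, against 8.19% and 6.77% in αSMA NC livers, so its share was higher with the hairpin in this arm. Thbs1 made up 36.7% and 74.3% in αSMA shThbs2 livers, against 86.0% and 87.1% in αSMA NC livers. Thbs3 made up 48.1% and 14.1% in αSMA shThbs2 livers, against 4.49% and 3.96% in αSMA NC livers. Thbs2 in the CMV arm made up 38.7% and 41.9% in shThbs2 livers, against 44.2% and 43.3% in NC livers. The sums were normalised separately in each table, so the levels of the arms are set side by side without a test.

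Cd36 (ENSMUSG00000002944, chr5:17781690-17888801, minus strand) encodes a scavenger receptor that takes up fatty acids and oxidised lipoproteins and binds the type 1 repeats of thrombospondin-1 and thrombospondin-2. It measured 11.6 and 15.6 FPKM in CMV shThbs2 livers, against 18.9 and 24.3 FPKM in CMV NC livers, and 16.1 and 21.9 FPKM in αSMA shThbs2 livers, against 39.1 and 26.5 FPKM in αSMA NC livers. Values were lower in shThbs2 livers of both arms without overlap, by 37.1% and 42.1% of the NC mean. The log2 change was -0.63 in the CMV arm (SE 0.196, 95% confidence interval -1.11 to -0.16, limma adjusted p = 0.397), where 1.88% of features had a lower change. It was -0.75 in the αSMA arm (SE 0.254, -1.39 to -0.11, adjusted p = 0.0696), where it passed with rescaling to the same FPKM sum (-1.14, adjusted p = 0.0153), with the same rescaling without mitochondrial genes (-0.95, adjusted p = 0.0335) and in the joint model of all 8 libraries (adjusted p = 0.0304), and was -0.53 with median centring (adjusted p = 0.143). The 7 liver endothelial markers summed to 81.4 and 99.7 FPKM in αSMA shThbs2 livers, against 125 and 86.5 FPKM in αSMA NC livers, and to 51.6 and 52.0 FPKM in CMV shThbs2 livers, against 53.0 and 60.6 FPKM in CMV NC livers, with 0 of 7 called by limma in either arm (1 in each at an unadjusted p under 0.05). Of all tested features limma called 36.1% in the αSMA arm and 0.0183% in the CMV arm. At an unadjusted p under 0.05 there were 49.9% and 10.2%. The part of the endothelial markers in the Cd36 values was not tested.

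Among 12 other genes of lipid uptake, 4 fell and 1 rose of 12 tested in the αSMA arm, where 22.8% of all features fell and 13.3% rose, so these counts lie near the background. Scarb1, the HDL receptor (log2 change -1.41, adjusted p = 0.00702), Fabp4, a fatty acid binding protein of endothelium and macrophages (-1.29, adjusted p = 0.0104), Slc27a4, a fatty acid transporter (-1.21, adjusted p = 0.0123), and Plin2, a lipid droplet coat protein (-1.54, adjusted p = 0.0430), fell, and Got2 rose (0.50, adjusted p = 0.0496; all limma). Among lipid uptake genes of the CMV arm limma called 0 of 11 (3 at an unadjusted p under 0.05, against 10.2% of all tested features). There Lpl, lipoprotein lipase, measured 24.7 and 21.6 FPKM in shThbs2 livers, against 60.5 and 56.9 FPKM in NC livers (log2 change -1.31, limma adjusted p = 0.0926). Lpl measured 58.6 and 127 FPKM in αSMA shThbs2 livers, against 52.3 and 47.5 FPKM in αSMA NC livers (log2 change 0.79, adjusted p = 0.150).

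Cd47 (ENSMUSG00000055447, chr16:49800533-49915010, plus strand) encodes a receptor for the carboxy-terminal domain of thrombospondins that also restrains phagocytosis through SIRPα. It measured 32.3 and 43.5 FPKM in αSMA shThbs2 livers, against 66.5 and 64.8 FPKM in αSMA NC livers, and 23.3 and 23.0 FPKM in CMV shThbs2 livers, against 20.6 and 24.1 FPKM in CMV NC livers. The αSMA groups did not overlap, while the CMV shThbs2 values lay inside the range of the CMV NC livers. Cd47 fell in the αSMA arm (log2 change -0.79, SE 0.191, 95% confidence interval -1.27 to -0.31, limma adjusted p = 0.0309, mean 42.2% lower). Its CMV log2 change was 0.05 (SE 0.138, -0.28 to 0.39, adjusted p = 0.935), and its sign turned with quantile normalization and without NC replicate 1. The αSMA call was lost without shThbs2 replicate 3 (adjusted p = 0.0607), NC replicate 3 (adjusted p = 0.178) or NC replicate 4 (adjusted p = 0.184), without a filter (adjusted p = 0.0748) and with median centring (-0.57, adjusted p = 0.0509).

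Tlr4 (ENSMUSG00000039005, chr4:66827584-66930284, plus strand) encodes the endotoxin receptor of macrophages, endothelium and stellate cells. It measured 0.82 and 0.96 FPKM in αSMA shThbs2 livers, against 1.47 and 1.33 FPKM in αSMA NC livers, and 0.667 and 0.648 FPKM in CMV shThbs2 livers, against 0.905 and 0.751 FPKM in CMV NC livers. Groups did not overlap in either arm, with the shThbs2 mean 36.4% lower in the αSMA arm and 20.6% lower in the CMV arm. The log2 change was -0.35 in the αSMA arm (SE 0.178, 95% confidence interval -0.80 to 0.11, limma adjusted p = 0.179) and -0.14 in the CMV arm (SE 0.105, adjusted p = 0.739 without a filter). It passed in the αSMA arm with rescaling to the same FPKM sum (-0.56, adjusted p = 0.0476) and in the joint model (adjusted p = 0.0289), and was -0.13 with median centring (adjusted p = 0.559) and -0.27 with quantile normalization (adjusted p = 0.225). The 6 Kupffer cell markers summed to 380 and 371 FPKM in αSMA shThbs2 livers, against 473 and 282 FPKM in αSMA NC livers. This sum overlapped. By limma 1 of 6 markers was higher and 0 lower, where 13.3% of all tested αSMA features were higher and 22.8% lower.

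Ptk2 (ENSMUSG00000022607, chr15:73205102-73423280, minus strand) encodes focal adhesion kinase, which relays integrin signals. It measured 6.84 and 8.13 FPKM in αSMA shThbs2 livers, against 10.8 and 11.2 FPKM in αSMA NC livers, and 5.26 and 5.43 FPKM in CMV shThbs2 livers, against 4.10 and 6.41 FPKM in CMV NC livers. The αSMA groups did not overlap, and the CMV shThbs2 values lay between the 2 CMV NC values. The log2 change was -0.50 in the αSMA arm (SE 0.153, 95% confidence interval -0.89 to -0.12, limma adjusted p = 0.0532) and 0.05 in the CMV arm (SE 0.204, -0.45 to 0.54, adjusted p = 0.962), where its sign turned without NC replicate 1 (-0.22). The αSMA change passed with rescaling to the same FPKM sum (-0.87, adjusted p = 0.00978) and with rescaling without mitochondrial genes (-0.69, adjusted p = 0.0266), and was -0.29 with median centring (adjusted p = 0.133) and also with quantile normalization (adjusted p = 0.132).

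**Figure D4:**
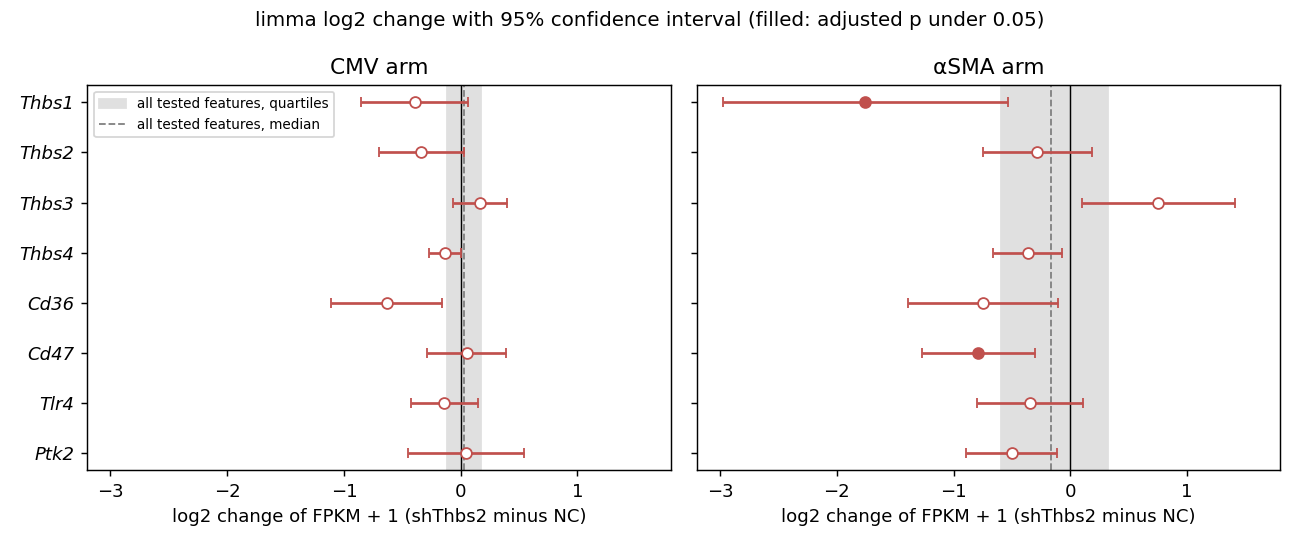
limma log2 change of FPKM + 1 (shThbs2 minus NC) with its 95% confidence interval for the 8 genes in each arm; filled points passed an adjusted p of 0.05, the grey band spans the quartiles of all tested features and the dashed line is their median. In the αSMA arm Thbs1 and Cd47 are filled and Thbs3 alone lies right of 0, while Thbs2 lies inside the grey band.

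Counted together, 0 of the 8 genes passed limma in the CMV arm (1 at an unadjusted p under 0.05, Cd36), where 0.0183% of 10916 tested features passed and 10.2% had an unadjusted p under 0.05 (8.44% without a filter). Of the 8 αSMA values 0 rose and 2 fell, Thbs1 and Cd47, where 22.8% of 13012 features fell and 13.3% rose. At an unadjusted p under 0.05 there were 6, where 49.9% of filtered and 31.5% of unfiltered features were. Of the 8 genes, 3 passed the filter of a mean of 1 FPKM in the CMV arm and 7 in the αSMA arm, and the others were read from the fit without a filter, which called 0% of 18169 CMV features and 7.28% of 25319 αSMA features (4.28% lower and 3.00% higher). A count of 2 of 8 in the αSMA arm stands beside 36.1% of all features called there in either direction. Of all αSMA calls 63.1% were lower, 86.2% after rescaling to the same FPKM sum and 76.5% after rescaling without mitochondrial genes, as the median change moved to -0.51 and -0.33. The number of the 8 genes called in the αSMA arm was 0 without shThbs2 replicate 3, NC replicate 3 or NC replicate 4 and 3 without shThbs2 replicate 4, and all αSMA features called numbered 1111, 53, 46 and 4137 in these fits.

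Groups did not overlap for 6 of 8 genes in the CMV arm and 8 of 8 in the αSMA arm. The background is high: 42.0% of filtered and 37.2% of unfiltered CMV features, and 74.9% and 55.6% of αSMA features, did not overlap either. By direction, 5 CMV genes lay lower and 1 higher, where 17.5% and 24.5% of filtered and 17.8% and 19.4% of unfiltered features did, and 7 αSMA genes lay lower and 1 higher, where 46.2% and 28.7%, or 33.9% and 21.7%, did. Within each of the arms, 5 genes had both shThbs2 livers below both NC livers of the same arm (Thbs1, Thbs2, Thbs4, Cd36 and Tlr4), against 9.43% of 15587 genes detected in both tables and 10.2% of those past the filter. Of the 8 genes, Thbs3 alone had both shThbs2 livers above both NC livers within each arm, against 7.20% of the detected and 9.54% of the filtered genes.

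The average effect over both arms was tested in 1 limma model of all 8 libraries, in which each arm keeps its own controls. In this model 7 of 8 genes passed, 6 lower and 1 higher, where 33.3% of 10245 genes passed with a filter in both arms and 22.5% of 15587 without one. Cd36, Cd47 and Ptk2 were read from the filtered fit and the other 5 from the fit without a filter. The fit without a filter alone called 6 of the 8, as Cd47 then had an adjusted p of 0.0519. At an unadjusted p under 0.05 the same number, 7, stood beside 45.9% and 37.6% of genes. Cd36 had an average log2 change of -0.69 (SE 0.171, adjusted p = 0.0165) and Thbs4 of -0.25 (adjusted p = 0.0280). Thbs2 had -0.31 (SE 0.0877, 95% confidence interval -0.52 to -0.10, adjusted p = 0.0442), Thbs1 -1.07 (adjusted p = 0.0446), Tlr4 -0.24 (adjusted p = 0.0429) and Cd47, whose effects differed between the arms, -0.37 (adjusted p = 0.0399), while Thbs3 had 0.46 (adjusted p = 0.0497). Ptk2 did not pass (-0.23, adjusted p = 0.206). Most of these calls sit just under the threshold. The number called was 0 without CMV shThbs2 replicate 1, 1 without CMV shThbs2 replicate 2, 3 without CMV NC replicate 1, 2 without CMV NC replicate 2, 3 without αSMA shThbs2 replicate 3, 6 without αSMA shThbs2 replicate 4, 1 without αSMA NC replicate 3 and 2 without αSMA NC replicate 4. Thbs2 stayed past the threshold without CMV NC replicate 2 or αSMA shThbs2 replicate 4 and had an adjusted p of up to 0.125 when another library was left out. It was 0.0688 with a pseudocount of 0.1, 0.0565 with robust empirical Bayes, 0.140 with quantile normalization and 0.180 with median centring. An exact permutation test stratified by arm gave a two-sided p of 0.0556 for Thbs1, Thbs2, Thbs3, Thbs4, Cd36 and Tlr4, the smallest that 36 assignments allow, and 0.222 for Cd47 and Ptk2.

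The effects of the arms differed for 1 of 8 genes, where 25.1% of filtered and 14.8% of unfiltered genes differed (40.8% and 33.0% at an unadjusted p under 0.05, against 1 of the 8). For Cd47 the CMV effect exceeded the αSMA effect by 0.84 on the log2 scale (SE 0.234, 95% confidence interval 0.31 to 1.37, limma adjusted p = 0.0327). That call was lost without CMV shThbs2 replicate 1 (adjusted p = 0.0962), CMV shThbs2 replicate 2 (0.0948), CMV NC replicate 1 (0.0932), αSMA shThbs2 replicate 3 (0.0656), αSMA NC replicate 3 (0.0914) or αSMA NC replicate 4 (0.0945), and with median centring (0.0639). For Thbs1 the difference was 1.36 (-0.07 to 2.80, adjusted p = 0.170), for Ptk2 0.55 (-0.05 to 1.15, adjusted p = 0.153) and for Thbs2 -0.06 (-0.47 to 0.36, adjusted p = 0.856). Without αSMA shThbs2 replicate 4, Thbs1 (2.09, adjusted p = 0.0163) and Thbs3 (-0.91, adjusted p = 0.0176) differed too, and without CMV NC replicate 2 Ptk2 did (0.82, adjusted p = 0.0372).

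The order of levels also differed between the tables. In CMV NC livers Cd47 (22.4 FPKM on average) and Cd36 (21.6 FPKM) led and overlapped, followed by Ptk2 (5.25 FPKM), and then Thbs2 (1.10 FPKM), Thbs1 (1.04 FPKM) and Tlr4 (0.828 FPKM), of which Thbs1 overlapped both others. In αSMA NC livers Cd47 (65.6 FPKM) led Cd36 (32.8 FPKM), Thbs1 (16.7 FPKM) stood above Ptk2, and Thbs2 (1.42 FPKM) overlapped Tlr4 (1.40 FPKM). In αSMA shThbs2 livers Thbs3 (2.12 FPKM) stood above Thbs2 (0.995 FPKM), and Thbs1 (4.87 FPKM) overlapped both Ptk2 and Thbs3.

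Partner genes from 3 lists were read beside the 8 genes: other thrombospondin receptors, ligands and targets, the TLR4 pathway, and the focal adhesion kinase pathway, 66 genes in all. Of 62 tested genes of the αSMA arm 33 fell and 0 rose, which is 53.2%, where 22.8% of all features fell. Their median log2 change was -0.61, against -0.16 for all features. The lists were chosen with earlier results of these data known, so these shares are a description and not a test of the lists. Of all features 6781 were called after rescaling to the same FPKM sum and 1843 without a filter, beside 50 and 16 partner genes. The count was 7 without shThbs2 replicate 3 and 0 without NC replicate 3 or NC replicate 4. Of the CMV values limma called 0 of 56 (4 at an unadjusted p under 0.05, against 10.2% of all tested features). Their median was -0.02, against 0.03 for all features.

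**Figure D5:**
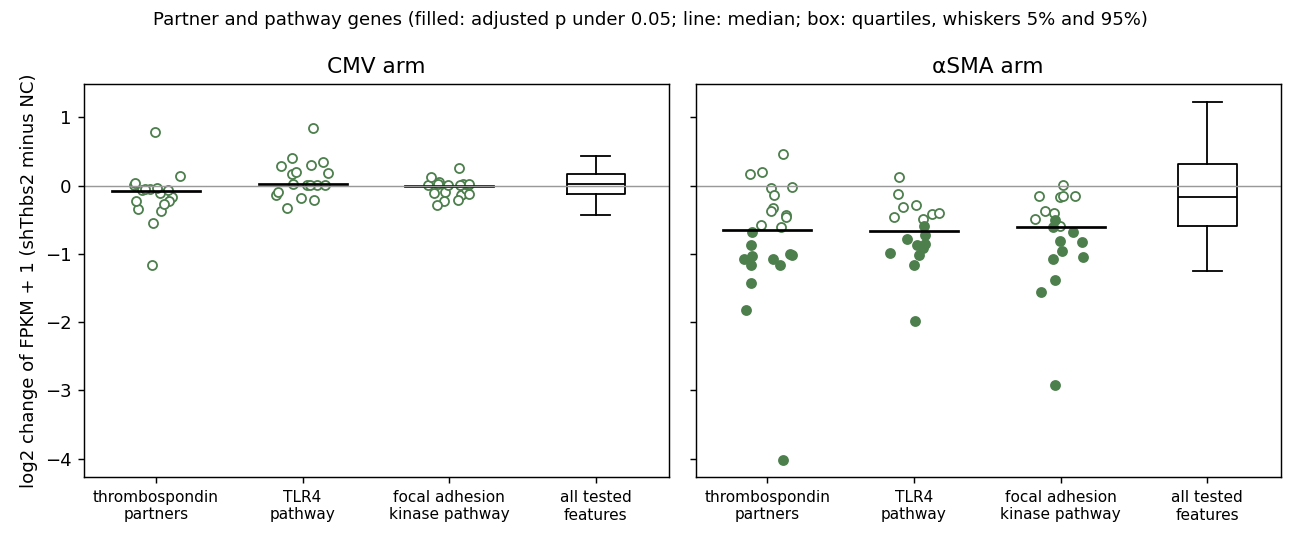
limma log2 change of FPKM + 1 (shThbs2 minus NC) of each tested gene of 3 partner lists in each arm, with the list median as a line and all tested features as a box (quartiles, whiskers at 5% and 95%). The αSMA list medians lie at -0.64, -0.66 and -0.60, below the median of all features at -0.16, and in the CMV arm no point is filled. The lists were chosen with earlier results of these data known.

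Among thrombospondin partners of the αSMA arm, 12 of 24 tested fell (median -0.64). Among them was Tgfb1, the cytokine that thrombospondin-1 activates (log2 change -1.08, limma adjusted p = 0.0110). The integrin chains Itgb1 (-1.43), Itga3 (-1.17) and Itgb3 (-0.87), the syndecans Sdc1 (-1.002) and Sdc4 (-0.69), the matrix protein fibronectin, Fn1 (-1.08), and the Notch ligand Jag1 (-1.02) fell, as did Adamts1 (-1.83), Stim1 (-1.03) and Scarb2 (-1.16). CMV livers had no calls here: Sdc4 measured 101 and 95.5 FPKM in shThbs2 livers, against 67.5 and 47.1 FPKM in NC livers (0.79, adjusted p = 0.296), Sdc1 had a log2 change of -0.55 (adjusted p = 0.343) and Fn1 of -0.37 (adjusted p = 0.452).

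Of 18 tested TLR4 pathway genes 10 fell in the αSMA arm (median -0.66). These were the NF-κB subunits Nfkb1 (-1.02) and Rela (-0.92), the NF-κB inhibitor Tnfaip3 (-1.98, limma adjusted p = 0.00703), the adaptors and kinases Traf6 (-0.99), Irak4 (-0.85), Ticam1 (-0.73), Map3k7 (-0.58) and Ikbkb (-0.78), the endotoxin carrier Lbp (-1.16) and the receptor Tlr2 (-0.86). Of the CMV values 0 of 18 passed limma (1 at an unadjusted p under 0.05) and 5 had a negative change. The 3 with the smallest p there were Ly96, the co-receptor of TLR4 (0.41, adjusted p = 0.446), Rela (0.29, adjusted p = 0.533) and Cd14, the other co-receptor (0.84, adjusted p = 0.560).

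Of 20 tested focal adhesion kinase pathway genes 11 fell in the αSMA arm (median -0.60). Vcl, which encodes vinculin, measured 1.14 and 1.68 FPKM in shThbs2 livers, against 13.98 and 20.8 FPKM in NC livers (log2 change -2.92, limma adjusted p = 0.00546). The kinases Src (-1.55), Akt1 (-1.39), Pik3ca (-0.68) and Mapk3 (-0.50), the adaptors Grb2 (-0.96) and Crk (-0.81), the GTPases Rac1 (-1.08) and Rhoa (-0.61) and the fibronectin receptor chain Itga5 (-1.04) fell too. For the CMV livers limma called 0 of 20 (0 at an unadjusted p under 0.05), with Zyx (0.26, adjusted p = 0.562), Mapk3 (-0.22, adjusted p = 0.596) and Itga5 (-0.29, adjusted p = 0.598) at the smallest p.

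Among 10054 named genes with at least 1 FPKM in both arms, those whose log2 values, centred within each arm, ran most like Thbs2 over the 8 libraries were Abcg1 (r = 0.97), Atg4c (0.96), Clec12a (0.96), Emp3 (0.96) and Zfp512b (0.96). Abcg1 encodes a cholesterol exporter and Clec12a a receptor of myeloid cells. Abcg1 averaged 2.31 FPKM in CMV shThbs2 livers and 3.69 FPKM in CMV NC livers, and 1.73 FPKM in αSMA shThbs2 livers and 2.52 FPKM in αSMA NC livers. Those most like Thbs1 were Kdm5d (0.99), Cd2bp2 (0.99), Pdcd6ip (0.99), Lrp12 (0.99) and Slc2a1 (0.98), and Slc2a1, a glucose transporter, averaged 6.95 FPKM in αSMA shThbs2 livers and 11.2 FPKM in αSMA NC livers. These likenesses are a description: the points share libraries and groups, and the genes were picked from many.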

How the data were processed

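Poly(A) RNA-seq of 8 mouse liver libraries (4 groups of 2) was deposited by the authors as 1 table of FPKM values per arm. The aligners HISAT, HISAT2 2.1.0 and Bowtie2 2.3.5, the program Cufflinks and build GRCm38 are named in the submitters' processing notes, without saying which served which arm. No read counts were analysed here. Low CMV values show no steps and αSMA values are rounded to 2 decimals, so depth stays unknown and intervals for counting error could not be had.

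Within each arm log2(FPKM + 1) was fitted by limma 3.58.1 under R 4.3.3 (two-sided, intensity trend). Benjamini-Hochberg adjustment ran over every feature whose mean reached 1 FPKM, with a threshold of 0.05. Genes under this filter were read from the same fit without it. The added 1 shrinks the log2 change of genes near 1 FPKM. Differences and averages of the arms came from 1 limma model of 8 libraries over genes found in both tables. The method was tested on simulated data. GENCODE M21 gave coordinates and transcripts, and RefSeq the promoters. The series text speaks of separate mice; if libraries were not 1 animal each, p-values measure only the spread between libraries.

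The 8 genes and all lists were chosen with earlier results of these data known. All 8 genes are named in both arms. Of each partner list the genes that passed are named, except that some genes are not reported here, nor is 1 marker in the ratios to Thbs2, and where none did, the 3 with the smallest p. For each of Thbs1 and Thbs2, 5 similar genes are named. Examples from the lipid uptake and immediate early lists were chosen after their values were seen. Of the 10 marker lists, those not given in the text are given as counts in the closing section.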

Additional observations from a re-analysis of the deposited data

Results flagged for a closer look

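Cd47 is the 1 gene of the 8 whose effect differed between the arms by the test of the difference itself. The CMV effect minus the αSMA effect was 0.84 on the log2 scale (limma adjusted p = 0.0327), where 25.1% of the genes tested in both arms differed. The call was lost with median centring (limma adjusted p = 0.0639), with a replicate block (0.0505) and when any of several single libraries was left out. A difference between the arms cannot be told apart from one of platform or company. Both αSMA shThbs2 livers (32.3 and 43.5 FPKM) lay below both αSMA NC livers (66.5 and 64.8 FPKM), while the CMV shThbs2 livers (23.3 and 23.0 FPKM) lay between the CMV NC livers (20.6 and 24.1 FPKM).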

How the results depend on the processing

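No member was called in the CMV arm under any alternative run, and every member of the αSMA arm kept its direction under all of them. With no filter, 0 members, 1843 features and 16 partner genes were called in the αSMA arm and 0 features in the CMV arm. The main fit called 4691 of 13012 features in the αSMA arm. With rescaling to the same FPKM sum, 5 members, 50 partner genes and 6781 features were called there, and 2 members differed between arms. Rescaling without mitochondrial genes called 4 members and 5517 features in the αSMA arm and 5 features in the CMV arm. Median centring called 0 αSMA members beside 4367 features, 0 members differing between arms and 3 over both arms. Quantile normalization called 1 αSMA member beside 4286 features, and 3 members over both arms. Robust empirical Bayes called 1 αSMA member beside 4824 features. The joint model called 6 αSMA members beside 5082 features, with 10245 genes past the filter in both arms. With a mean of at least 5 FPKM, genes under the filter were read from the fit without one.

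Same-numbered libraries did not deviate together (r of their deviations across features 0.04 in the CMV and 0.0013 in the αSMA arm). A low r cannot exclude that the numbers pair them. With a replicate block 17 features were called in the CMV arm, 0 members differed between arms and 3 were called over both arms. The block ended the call of the Cd47 difference (limma adjusted p = 0.0505) and of the Thbs2 average effect (adjusted p = 0.0535), and gave Thbs2 an adjusted p of 0.664 in the CMV and 0.311 in the αSMA arm.

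Leaving out 1 library at a time, with the lone library of a group assumed to vary like the others, called 10 to 152 features and 0 to 2 partner genes in the CMV arm. It called 46 to 4137 features, 0 to 3 members and 0 to 31 partner genes in the αSMA arm, 0 to 3 members between arms and 0 to 6 over both arms. Thbs2 ranged from -0.46 to -0.22 in the CMV and from -0.39 to -0.18 in the αSMA arm over these fits, and from -0.65 to -0.22 and -0.51 to -0.06 over all alternatives. The cause of these moves was not tested, beyond fewer libraries or more features tested.

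Some signs turned between runs. Cd47 in the CMV arm was -0.0174 with quantile normalization and -0.0578 to 0.16 as each library was left out, with the low end without NC replicate 1, and Ptk2 there -0.22 to 0.315 likewise. The difference of effects between arms turned for Thbs2 to 0.15 with rescaling, 0.0535 with rescaling without mitochondrial genes, 0.065 without CMV NC replicate 1 and 0.0488 without αSMA shThbs2 replicate 4. It turned for Thbs4 (from 0.23 to -0.0249), Tlr4 (from 0.205 to -0.0514) and Cd36 (from 0.115 to -0.14) with median centring. For Cd36 it also turned with quantile normalization (-0.0658) and without CMV shThbs2 replicate 2 (-0.08), CMV NC replicate 1 (-0.06), αSMA shThbs2 replicate 3 (-0.10) or αSMA NC replicate 3 (-0.16), over a range that reached 0.388 without αSMA NC replicate 4. Thbs1, Thbs2, Thbs3, Thbs4 and Tlr4 lie under or near 1 FPKM in the CMV arm, where no depth is known, and 2 libraries per group limit every test.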

Other observations

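Beside the αSMA marker counts stand 22.8% of all αSMA features lower and 13.3% higher, and several of the counts are close to these shares. Beside the CMV counts at an unadjusted p under 0.05 stand 10.2% of all tested CMV features. Of 6 tested monocyte and neutrophil markers 3 fell and 0 rose in the αSMA arm by limma, with sums of 88.6 and 129 FPKM in shThbs2 livers, against 139 and 173 FPKM in NC livers. In the CMV arm 0 of 4 passed (3 at an unadjusted p under 0.05), with sums of 5.46 and 4.89 FPKM in shThbs2 livers, against 12.0 and 7.83 FPKM in NC livers. Of 8 stellate cell markers 1 rose and 1 fell (Pdgfrb) in the αSMA arm, and 0 passed in the CMV arm (2 at an unadjusted p under 0.05). Of 4 tested myofibroblast markers 2 fell in the αSMA arm and 0 passed in the CMV arm (2 at an unadjusted p under 0.05). Of 4 tested cholangiocyte markers 1 fell in the αSMA arm, and 0 of 2 passed in the CMV arm (0 at an unadjusted p under 0.05). Of 6 Kupffer cell markers 0 passed in the CMV arm (0 at an unadjusted p under 0.05), with sums of 266 and 279 FPKM in shThbs2 livers, against 363 and 209 FPKM in NC livers. Of 6 hepatocyte markers 2 rose in the αSMA arm, and 0 passed in the CMV arm (3 at an unadjusted p under 0.05). The 1 tested mesothelial marker did not pass in the αSMA arm. All calls are limma at an adjusted p of 0.05.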
